A study of Homo sapiens with 8 samples.

Results

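Antiviral restriction factors are proteins of the cell that block steps of virus replication, and 10 of their genes were followed through PARP inhibitor resistance in an ovarian cancer cell line. MX1, MX2, SAMD9, SAMD9L, SAMHD1, TRIM22, TRIM5, RSAD2, BST2 and XAF1 were taken by symbol from a table of RNA-seq read counts for 32803 gene symbols, and all 10 were found. The cells were UWB1.289, a human ovarian cancer line without functional BRCA1, its BRCA1-restored version UWB1.289+BRCA1, and an isogenic PARP inhibitor-resistant derivative of each. The 4 groups held 2 libraries each (n = 2 throughout): resistant BRCA1-proficient cells (Olres-UWB1.289+BRCA1, passage 45), parental BRCA1-proficient cells (UWB1.289+BRCA1, passage 10), resistant BRCA1-deficient cells (Olres-UWB1.289, passage 56) and parental BRCA1-deficient cells (UWB1.289, passage 29). All cells were grown in medium without drug, so a difference between resistant and parental cells is one between lines and not an acute response to an inhibitor. Resistance and passage changed together in both backgrounds and cannot be told apart. In proficient cells the level of BRCA1 mRNA changed with them as well (values below), and it cannot be told apart from them there. Whether a resistant line was 1 clone, and whether replicate libraries came from separate cultures, is not given in the sources used here, so every p-value reflects the spread among these libraries alone, and that spread may be technical.

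Type I and type III interferons bind receptors that activate the kinases JAK1 and TYK2. These phosphorylate STAT proteins, which join IRF9 to form the factor ISGF3. ISGF3 binds the interferon-stimulated response element (ISRE) in the promoters of antiviral genes, and many of these genes also keep a basal level of transcription without added interferon. The dynamin-like GTPases MX1 and MX2 trap viral nucleoprotein or capsids, SAMD9 and SAMD9L restrict poxviruses and lower translation, and SAMHD1 is a dNTP triphosphohydrolase that starves reverse transcription and also acts at stalled replication forks. TRIM5 binds retroviral capsids and TRIM22 is a related ubiquitin ligase, RSAD2 (viperin) makes a chain-terminating nucleotide, BST2 (tetherin) holds budding virions at the membrane, and XAF1 is a pro-apoptotic partner of the inhibitor of apoptosis protein XIAP.

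The libraries held 24094821 to 34394107 counts. BRCA1 mRNA, the check of the labels, averaged 2270 CPM in resistant proficient, 202 CPM in parental proficient, 34.7 CPM in resistant deficient and 35.6 CPM in parental deficient cells (CPM, counts relative to the depth-scaled library total). With resistance it rose by 3.49 on the log2 scale in proficient cells (edgeR adjusted p = 1.06e-10). The -0.04 in deficient cells did not pass (edgeR adjusted p = 0.714). The part of BRCA1 level in the results below was not tested. Of 9 ovarian carcinoma markers, 8 or 9 reached 1 CPM in each library, and of 8 leukocyte markers, which matter here because blood cells express many interferon-induced genes, 1 or 2 did. The summed leukocyte markers were 28.4 and 27.8 CPM in resistant proficient libraries and 16.1 and 15.6 CPM in parental proficient libraries, against 5.87 and 6.39 CPM in resistant deficient and 10.98 and 9.69 CPM in parental deficient libraries. CD2 was at 0 in every library, and CD3E and NKG7 held at most 2 and 4 counts. PTPRC and CD14 made up most of these sums and did not move together. CD14, also a lipopolysaccharide co-receptor of myeloid cells, averaged 21.3 CPM in resistant and 2.47 CPM in parental proficient cells, against 0.898 CPM in resistant and 0.472 CPM in parental deficient cells. PTPRC, the pan-leukocyte CD45 gene, fell with resistance in both backgrounds, with 6.24 CPM in resistant and 12.8 CPM in parental proficient cells, against 4.07 CPM in resistant and 8.99 CPM in parental deficient cells. The part of these markers in the results was not tested. Bulk counts cannot tell fewer cells expressing a gene from less RNA per cell.

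The promoters are shown first, since these genes are known for their ISREs. RefSeq promoter windows on GRCh38.p14, of 300 bases from 250 before to 50 after a start, were matched for 8 of the 10 genes by symbol; MX2 and TRIM22 had none. The ISRE was searched as GAAA, any 2 bases and GAAA, on both strands. It had 1 or more matches in 5 of the 8 genes and in 3.57% of all 35116 windows. These rates differ in unit: a gene was counted once over all its windows, and MX1, RSAD2 and XAF1 had more than 1. The following are 30-base stretches on the gene's strand, 5′ to 3′, with the match in capitals (matches on the other strand read as its reverse complement).
MX1, chr21:41420559-41420588, plus strand: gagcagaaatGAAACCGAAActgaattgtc
MX1 (a second start), chr21:41431844-41431873, plus strand: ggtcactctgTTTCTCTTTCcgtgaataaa
TRIM5, chr11:5685082-5685111, minus strand: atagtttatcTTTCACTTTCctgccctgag
RSAD2, chr2:6877622-6877651, plus strand: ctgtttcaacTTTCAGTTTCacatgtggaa
BST2, chr19:17405738-17405767, minus strand: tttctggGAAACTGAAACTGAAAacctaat

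The MX1 match lay 12 to 21 bases after its start and that of the second start 196 to 187 bases before it. TRIM5 had its match 27 to 18 bases before the start, RSAD2 145 to 136 bases before, and BST2 had 2 overlapping matches that together ran from 130 to 115 bases before. The paralogs SAMD9 and SAMD9L are neighbours on chromosome 7, and because their mRNAs moved together (below), the 250 bases before each start are given whole.
SAMD9, chr7:93117980-93118229, minus strand: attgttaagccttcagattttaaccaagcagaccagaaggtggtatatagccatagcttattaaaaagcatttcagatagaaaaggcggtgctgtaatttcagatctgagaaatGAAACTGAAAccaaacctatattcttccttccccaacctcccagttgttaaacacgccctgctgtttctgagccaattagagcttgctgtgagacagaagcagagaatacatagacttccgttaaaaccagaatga
SAMD9L, chr7:93148386-93148635, minus strand: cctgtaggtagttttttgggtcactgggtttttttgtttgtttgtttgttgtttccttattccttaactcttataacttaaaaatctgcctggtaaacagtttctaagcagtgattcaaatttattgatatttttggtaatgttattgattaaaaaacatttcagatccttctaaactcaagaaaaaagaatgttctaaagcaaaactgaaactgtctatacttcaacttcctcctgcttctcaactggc

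SAMD9 held the exact ISRE letters 136 to 127 bases before its start, and SAMD9L, SAMHD1 and XAF1 had no exact match in their windows. The 250 bases of SAMD9 were 40.0% G and C and those of SAMD9L 31.6%. A second element, the gamma-activated site (TTCNNNGAA), was found in 2 of the 8 genes, MX1 and BST2, and in 7.66% of all windows. Here too the genes were counted over all their windows. Its letters can overlap an ISRE match. A match describes letters only, and its part in the changes below was not tested.

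Resistance had opposite directions in the 2 backgrounds for most of these genes. In BRCA1-proficient cells 8 of 10 rose with resistance and none fell, where 25.9% of the 16221 genes tested rose and 27.8% fell. In BRCA1-deficient cells 9 of 10 fell and none rose, where 27.0% of genes tested fell and 28.9% rose. MX2 entered the test only through its parental deficient libraries and so had to differ there; 8 of the other 9 genes fell. The genes that did both were MX1, SAMD9, SAMD9L, SAMHD1, TRIM22, RSAD2 and BST2, and those 2 comparisons share no library.

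**Figure D1:**
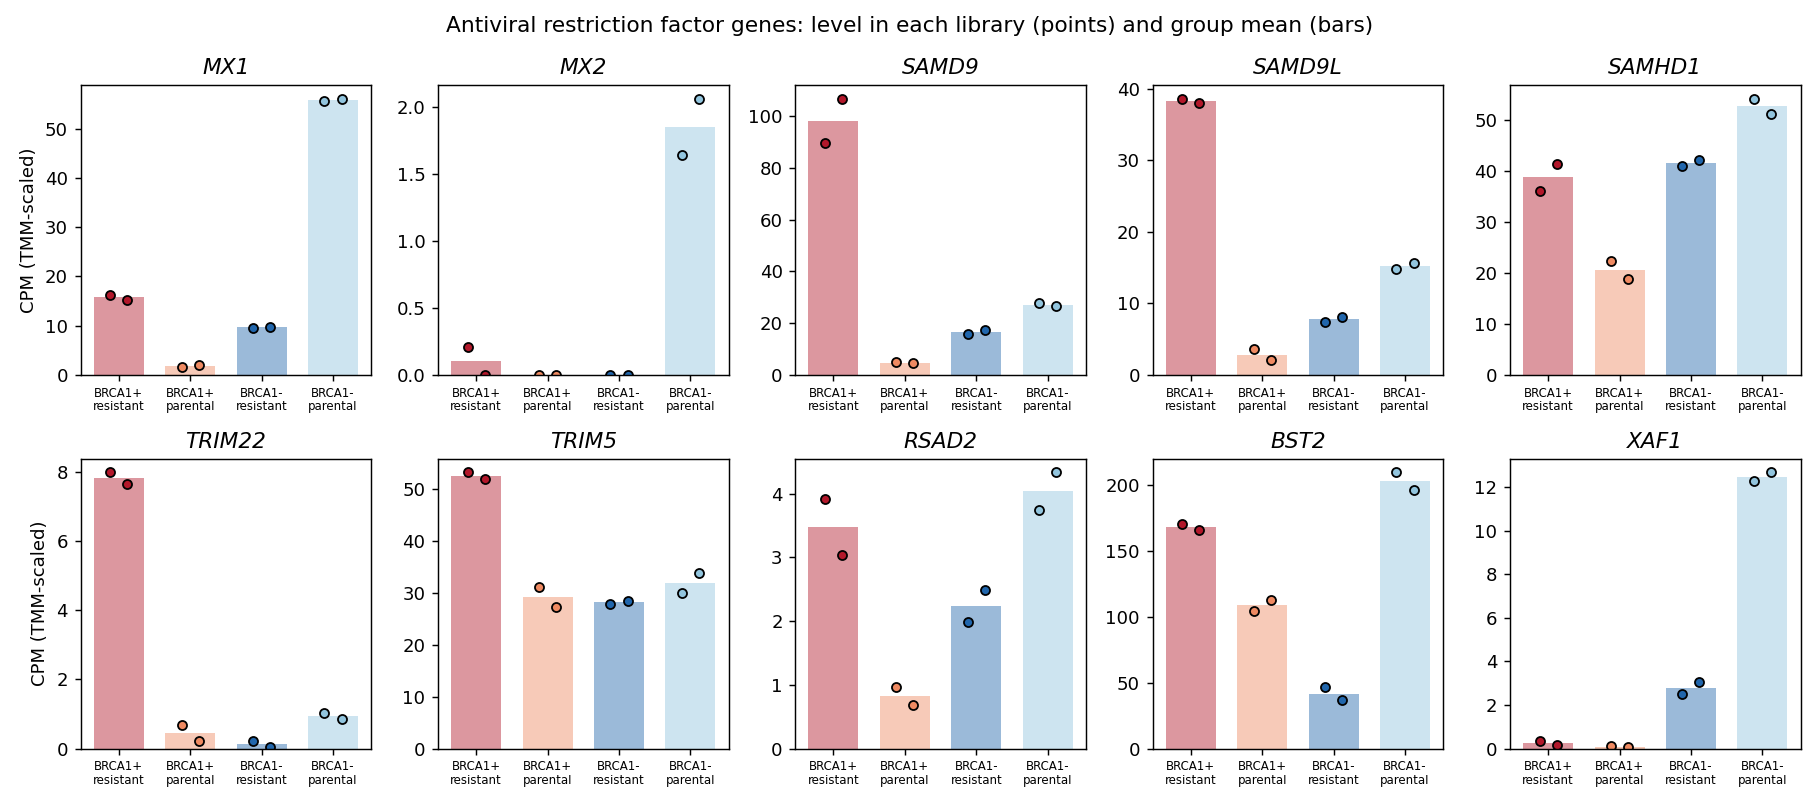
CPM of the 10 restriction factor genes on linear axes from 0, with a point for each library and a bar for the group mean (BRCA1+ is proficient, BRCA1- deficient). MX1, MX2, SAMHD1, RSAD2, BST2 and XAF1 had their highest mean in parental deficient cells, and SAMD9, SAMD9L, TRIM22 and TRIM5 in resistant proficient cells.

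MX1 stood at 16.3 and 15.2 CPM in resistant proficient libraries, against 1.65 and 2.04 CPM in parental proficient libraries. In the deficient background it stood at 9.50 and 9.80 CPM in resistant libraries, against 55.6 and 56.1 CPM in parental libraries. No 2 groups overlapped, and their order from high to low was parental deficient, resistant proficient, resistant deficient and parental proficient. The log2 fold change with resistance was 3.08 ± 0.14 (SE, edgeR adjusted p = 3.18e-08) in proficient cells and -2.53 ± 0.12 (adjusted p = 7.00e-08) in deficient cells. Every pair of neighbours in that order passed the test. MX2, the paralog next to MX1 on chromosome 21, was counted mainly in parental deficient cells, with 50 and 72 counts there, 6 and 0 counts in resistant proficient cells and 0 counts in the other 4 libraries. Against a floor of 3 counts over a group, MX2 was at least 38.9-fold lower in resistant than parental deficient cells (adjusted p = 0.000332) and at least 33.5-fold lower in parental proficient than parental deficient cells (adjusted p = 0.000295). DESeq2 did not pass either difference (adjusted p = 0.144 and 0.141). The filter on low counts kept MX2 only through its parental deficient libraries, and in resistant against parental proficient cells its 6 counts against 0 did not pass (adjusted p = 0.0975; 0.0259 without resistant proficient library 2, which held none).

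SAMD9 had the largest fitted change with resistance of the 10 in proficient cells among those that passed. TRIM22 was close, at 4.16 ± 0.42 on the log2 scale, and was larger without parental proficient library 1 (5.21). SAMD9 stood at 89.6 and 107 CPM in resistant proficient libraries, against 4.92 and 4.53 CPM in parental proficient libraries. Resistant deficient libraries held 15.8 and 17.5 CPM, against 27.8 and 26.4 CPM in parental deficient libraries. The groups did not overlap, and the lowest was parental proficient and the highest resistant proficient. The log2 fold change was 4.38 ± 0.13 (adjusted p = 1.37e-09) in proficient cells and -0.70 ± 0.11 (adjusted p = 0.000313; -0.34 with the GC trend removed) in deficient cells. Its paralog SAMD9L kept the same order of groups, with 38.6 and 38.0 CPM in resistant proficient libraries, against 3.55 and 2.04 CPM in parental proficient libraries. In deficient cells it held 7.42 and 8.13 CPM in resistant libraries, against 14.8 and 15.6 CPM in parental libraries. SAMD9L rose by 3.79 ± 0.20 on the log2 scale in proficient cells (adjusted p = 8.11e-08) and fell by 0.96 ± 0.18 in deficient cells (adjusted p = 0.000936). The log2 CPM of the 2 paralogs followed each other over the 8 libraries (r = 0.99, a description over libraries that share their groups), and reads common to both cannot be told apart in these counts. VPS50, the next tested gene beside the pair, changed by 0.45 (adjusted p = 0.00148) in proficient and by -0.03 (adjusted p = 0.799) in deficient cells.

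SAMHD1 changed less. It stood at 36.0 and 41.4 CPM in resistant proficient libraries, against 22.2 and 18.7 CPM in parental proficient libraries, and at 41.0 and 42.0 CPM in resistant deficient libraries, against 54.1 and 51.2 CPM in parental deficient libraries. Parental proficient libraries were the lowest, and the resistant lines were close to each other, with a log2 difference of -0.10 ± 0.11 that did not pass (adjusted p = 0.402). Resistance gave log2 fold changes of 0.92 ± 0.11 in proficient cells (adjusted p = 3.43e-05) and -0.34 ± 0.10 in deficient cells (adjusted p = 0.0165). The fall in deficient cells no longer passed with the trend on GC content removed (-0.13, adjusted p = 0.143) or without parental deficient library 1 (-0.30, adjusted p = 0.101). SAMHD1 exons overlap TLDC2 on the other strand over 1159 bases, and TLDC2 held 1 to 7 counts per library.

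TRIM22 was highest in resistant proficient cells, with 7.98 and 7.66 CPM there, against 0.685 and 0.207 CPM in parental proficient libraries. Resistant deficient libraries held 6 and 2 counts, against 31 and 30 counts in parental deficient libraries (0.216 and 0.0578 CPM, against 1.02 and 0.860 CPM). It rose by 4.16 ± 0.42 on the log2 scale in proficient cells (adjusted p = 8.74e-06) and fell by 2.82 ± 0.59 in deficient cells (adjusted p = 0.00192), where the value was -3.92 without resistant deficient library 1 and -2.11 without library 2. The proficient value was 5.21 without parental proficient library 1 and 3.56 without library 2. Both directions were favoured by the filter, which TRIM22 met in both libraries only of resistant proficient and parental deficient cells. TRIM5, on the opposite strand beside it on chromosome 11, stood at 53.2 and 52.0 CPM in resistant proficient libraries, against 31.1 and 27.3 CPM in parental proficient libraries. In deficient cells TRIM5 held 27.9 and 28.5 CPM in resistant libraries, against 29.96 and 33.8 CPM in parental libraries. Only the resistant proficient group stood apart: the log2 fold change was 0.85 ± 0.10 in proficient cells (adjusted p = 3.18e-05) and -0.18 ± 0.10 in deficient cells (adjusted p = 0.161, not passed). Over the alternative settings (listed further on) the TRIM5 value in deficient cells ran from -0.26 to 0.05, so its direction was not fixed. The gene bodies of TRIM5 and TRIM22 overlap with 0 exonic bases in common. Of the other TRIM genes of that chromosome 11 cluster, 3 of 4 were tested: TRIM6 rose by 1.26 (adjusted p = 0.000614) and TRIM21, a cytosolic antibody receptor, by 0.65 (adjusted p = 0.0237) in proficient cells, TRIM68 gave 0.20, and none passed in deficient cells.

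RSAD2 was low throughout, at 3.92 and 3.04 CPM in resistant proficient libraries, against 0.967 and 0.691 CPM in parental proficient libraries. Deficient cells held 1.98 and 2.49 CPM in resistant libraries, against 3.75 and 4.33 CPM in parental libraries. Resistant proficient and parental deficient libraries were the high groups and did not differ past the test (adjusted p = 0.454). RSAD2 rose by 2.08 ± 0.29 on the log2 scale in proficient cells (adjusted p = 0.000106) and fell by 0.85 ± 0.25 in deficient cells (adjusted p = 0.0127). The second call was lost with DESeq2 (adjusted p = 0.0584), without resistant deficient library 1 (adjusted p = 0.0637) and without parental deficient library 2 (adjusted p = 0.0874). CMPK2, a mitochondrial nucleotide kinase gene beside RSAD2 that is known to be induced with it, gave 0.79 (adjusted p = 0.0247) in proficient and -0.29 (adjusted p = 0.285) in deficient cells.

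BST2 was the most abundant of the 10 per exon length in every group (values further on), although in resistant deficient cells its CPM was about that of SAMHD1. It stood at 171 and 166 CPM in resistant proficient libraries, against 104 and 113 CPM in parental proficient libraries, and at 46.5 and 37.2 CPM in resistant deficient libraries, against 210 and 196 CPM in parental deficient libraries. Resistant deficient cells were the lowest group by a wide margin, unlike for MX1, SAMD9 and SAMD9L, whose lowest group was parental proficient. TRIM22 and TRIM5 also had their lowest mean in resistant deficient cells. For TRIM5 the step to parental proficient cells did not pass edgeR's test (adjusted p = 0.692). BST2 fell by 2.28 ± 0.10 on the log2 scale with resistance in deficient cells (adjusted p = 4.68e-08) and rose by 0.63 ± 0.09 in proficient cells (adjusted p = 0.000181). BISPR, a long non-coding RNA gene beside BST2 known to share a bidirectional promoter with it, fell by 1.37 in deficient cells (adjusted p = 2.98e-05) and changed by -0.02 in proficient cells (adjusted p = 0.918).

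XAF1 was low in both proficient groups. It held 10 and 4 counts in resistant proficient libraries and 3 and 2 counts in parental proficient libraries, against 70 and 106 counts in resistant deficient and 374 and 442 counts in parental deficient libraries. Both proficient groups were near 0 and below every deficient library. XAF1 fell by 2.15 ± 0.22 on the log2 scale with resistance in deficient cells (adjusted p = 1.34e-05), and the 1.46 ± 0.61 in proficient cells did not pass (adjusted p = 0.0624). XAF1 entered the test only through its deficient libraries, so a lower level in proficient cells was fixed by that filter; as a description, the log2 differences were -7.00 ± 0.35 between the parental lines and -3.39 ± 0.33 between the resistant lines (-4.00 without resistant proficient library 1). An antisense gene overlaps 2535 exonic bases of XAF1, and the strand setting of the counting is not given in the sources used here.

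**Figure D2:**
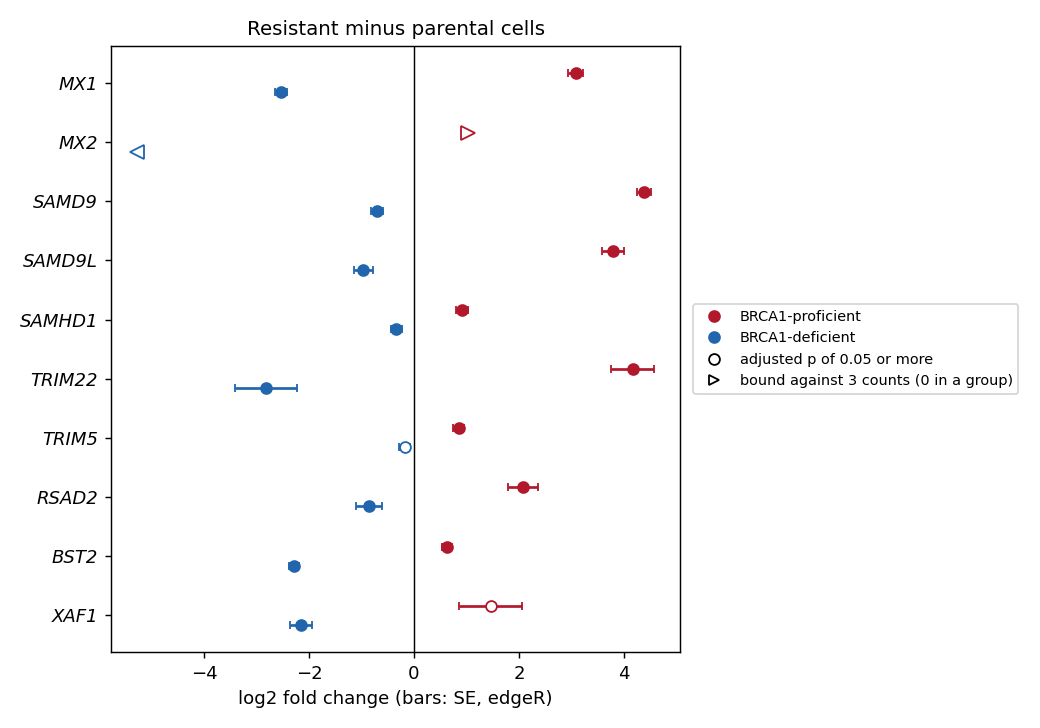
Log2 fold change with resistance (resistant over parental) of each gene in proficient and deficient cells, with bars of 1 SE, open circles where the test did not pass and triangles for the bounds of MX2. The proficient values lie at or above 0.63 and the deficient values at or below -0.18.

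In proficient cells 5 of the 10 genes rose at least 2-fold, where 10.4% of all tested genes did. In deficient cells 5 fell at least 2-fold, where 7.38% did. The median log2 fold change of the 10 genes was 2.58 in proficient cells (1.77 with MX2 at its bound) and -1.56 in deficient cells, while the medians of all tested genes were -0.0017 and 0.026. Both resistant libraries lay below both parental libraries for all 10 genes in deficient cells (37.8% of all genes), and above them for 9 genes in proficient cells (37.8% of all genes), MX2 being the exception. The 7 genes that fell in deficient and rose in proficient cells compare with 5.02% of all tested genes. The opposite held for 4.28% of tested genes and for no member. These counts include TRIM22, and in deficient cells also MX2, whose directions the filter favoured.

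The difference of the 2 resistance effects, proficient minus deficient, was tested in the same fit. All 10 genes passed with a higher effect in proficient cells, against 21.4% of tested genes (25.3% had a lower effect), and each difference was at least 2-fold, against 10.1%. It was 6.98 ± 0.70 for TRIM22 (adjusted p = 1.77e-05), 5.61 ± 0.19 for MX1 (adjusted p = 4.16e-09) and 5.08 ± 0.17 for SAMD9 (adjusted p = 4.16e-09), and smallest for TRIM5, at 1.03 ± 0.14 (adjusted p = 0.000169), or 0.81 with the GC trend removed. For TRIM5 and XAF1 the difference passed although 1 of the 2 effects did not. The fitted MX2 value of 13.54 rests on groups at 0 and is no size. MX2 met the filter in both libraries only of parental deficient cells, and TRIM22 only of resistant proficient and parental deficient cells. High values in these groups raise the difference, so the direction for MX2 and TRIM22 was favoured by the filter.

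**Figure D3:**
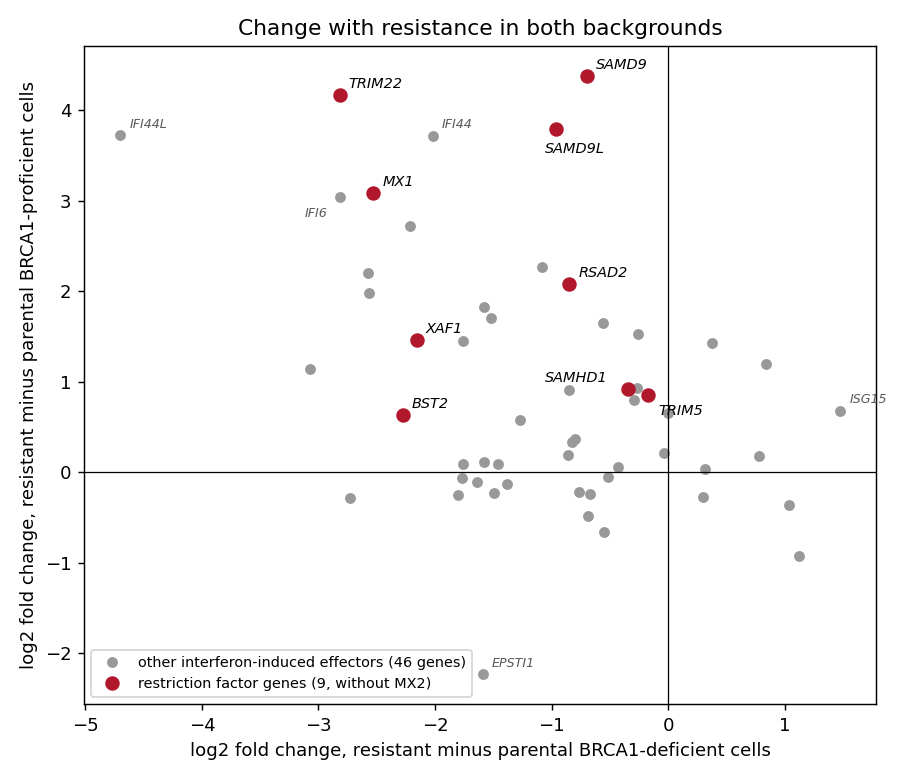
Each point is a gene, with its log2 fold change with resistance in deficient cells on the x axis and in proficient cells on the y axis, for 9 restriction factor genes (MX2 left out) and 46 other interferon-induced effectors. All 9 lie at the upper left of both zero lines, and EPSTI1 and ISG15 are examples of effectors elsewhere.

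BRCA1 state was compared within parental and within resistant lines. Passage differed too, at 10 in proficient and 29 in deficient parental lines, and at 45 and 56 in the resistant lines. BRCA1 state and passage therefore cannot be told apart in either comparison. Among parental lines 8 of 10 genes were lower in proficient than in deficient cells and none higher, where 30.1% of tested genes were lower and 32.3% higher, and 7 were lower at least 2-fold, where 14.2% were. Both proficient libraries lay below both deficient libraries for 9 genes (41.1% of all genes). MX2 and XAF1 entered the test only through deficient libraries and so had to be lower in proficient cells; of the other 8 genes 6 were lower, 5 of them at least 2-fold. Over all 10, the median log2 difference was -2.37 (all genes 0.0025). XAF1 and MX1 (-4.91 ± 0.14, adjusted p = 1.08e-09) differed most among those with counts in both groups. TRIM22 (-1.11 ± 0.48, adjusted p = 0.0662) and TRIM5 (-0.13 ± 0.10, adjusted p = 0.285) did not pass, but both passed with the GC trend removed (-1.42, adjusted p = 0.00975 for TRIM22 and -0.38, adjusted p = 0.000340 for TRIM5). Without parental proficient library 1 the TRIM22 value was -2.15. Of the parental groups, TRIM22 met the filter in both libraries only of deficient cells, so its direction here was favoured by the filter. SAMD9 and SAMD9L were lower by -2.52 ± 0.13 (adjusted p = 4.61e-08) and -2.46 ± 0.20 (adjusted p = 1.68e-06), RSAD2 by -2.29 ± 0.28 (adjusted p = 3.60e-05) and BST2 by -0.90 ± 0.09 (adjusted p = 1.02e-05; -0.40 with the GC trend removed).

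Among resistant lines the order turned: 7 genes were higher in proficient than deficient cells, where 36.3% of tested genes were higher, and 1, XAF1, was lower, where 37.5% were. At least 2-fold, 4 were higher and XAF1 was lower, where 17.4% and 23.0% of genes were. Of the resistant groups, TRIM22 met the filter in both libraries only of proficient cells, and XAF1 only of deficient cells. The directions of these genes here were thus favoured by the filter. Both proficient libraries lay above both deficient ones for 7 genes (42.8% of all genes) and below them for 1 (43.7%). TRIM22 was higher by 5.87 ± 0.49 (adjusted p = 9.21e-07), with 6.98 without resistant deficient library 1 and 5.15 without library 2. The values were 2.56 ± 0.11 for SAMD9 (adjusted p = 6.24e-09), 2.30 ± 0.18 for SAMD9L (adjusted p = 5.71e-07) and 2.01 ± 0.10 for BST2 (adjusted p = 1.56e-08). MX1 was higher by 0.70 ± 0.12 (adjusted p = 0.000228) and TRIM5 by 0.90 ± 0.10 (adjusted p = 9.31e-06; 0.43 with the GC trend removed). RSAD2 was higher by 0.64 ± 0.25 (adjusted p = 0.0391), which became 0.10 (adjusted p = 0.719) with the GC trend removed. That RSAD2 call was also lost with DESeq2 (adjusted p = 0.132), without resistant proficient library 1 (0.48, adjusted p = 0.196) and without resistant deficient library 1 (0.49, adjusted p = 0.162). The median was 1.45, or 1.07 with MX2 at its bound, against -0.017 over all genes. Across genes, differences between proficient and deficient cells followed transcript GC content (Spearman rho -0.440 for parental and -0.515 for resistant lines over 15665 genes), and the change with resistance did so in deficient cells (0.456) more than in proficient cells (0.0823). Transcripts of the 10 genes ranged from 36.0% GC (SAMD9) to 57.3% (BST2).

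**Figure D4:**
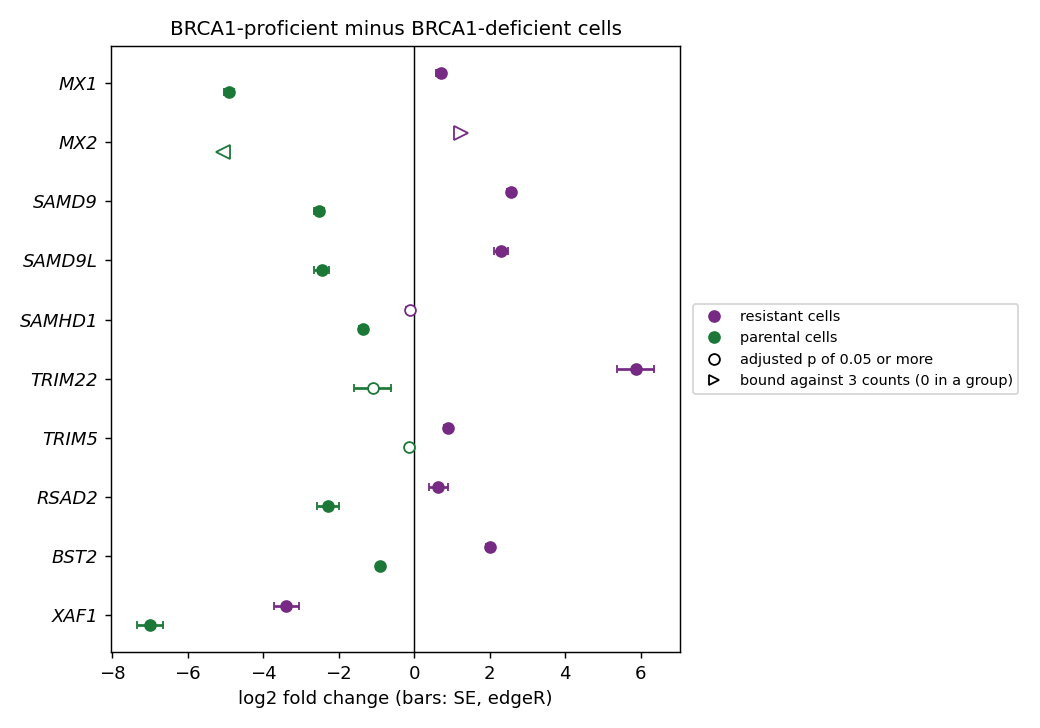
Log2 difference of each gene between proficient and deficient cells (proficient over deficient), within resistant lines and within parental lines, with bars of 1 SE, open circles where the test did not pass and triangles for the bounds of MX2. All 10 parental values are below 0, and 8 of 10 resistant values are above 0, XAF1 and SAMHD1 being the exceptions.

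Per length, BST2 averaged 165 CPM per kb of exon in resistant proficient and 107 in parental proficient cells, and 41.1 in resistant deficient and 199 in parental deficient cells. It stood above 90.2% to 98.7% of tested genes. In resistant proficient cells SAMD9 (14.3 CPM per kb) and TRIM5 (13.4) came next, and in parental deficient cells MX1 (13.8) and SAMHD1 (8.54) did. RSAD2 was at 0.236 to 1.15 CPM per kb in the 4 groups, and MX2 did not exceed 0.610.

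The other interferon-induced effectors showed the same split in part. Of 46 tested of 47 listed, 21 rose and 3 fell with resistance in proficient cells (median 0.27). Of all tested genes, 25.9% rose and 27.8% fell there. In deficient cells 5 rose and 34 fell (median -0.86), where 28.9% of all tested genes rose and 27.0% fell. The 15 that did both in the manner of MX1 included IFI44L, IFI44, IFI6, IFIT1, OAS1 and OAS2, and none did the opposite. Over all tested genes, 5.02% did both in that manner and 4.28% did the opposite. IFI44L, a feedback factor of interferon responses, stood at a mean of 14.1 ± 1.60 CPM in resistant proficient and 1.06 ± 0.0364 CPM in parental proficient cells (SD), against 1.73 ± 0.255 CPM in resistant deficient and 45.3 ± 0.360 CPM in parental deficient cells. Its log2 fold change was 3.73 ± 0.18 in proficient cells (adjusted p = 3.65e-08) and -4.70 ± 0.16 in deficient cells (adjusted p = 8.53e-09). The effectors against the main direction were EPSTI1 (-2.23, adjusted p = 5.78e-08), DTX3L (-0.48, adjusted p = 0.000578) and PARP14 (-0.23, adjusted p = 0.0270) in proficient cells. In deficient cells they were ISG15, the ubiquitin-like modifier (1.47, adjusted p = 0.00314), PARP10 (1.12, adjusted p = 0.0115), IFITM2 (1.03, adjusted p = 0.000163), LGALS3BP (0.84, adjusted p = 0.000757) and PML (0.78, adjusted p = 0.00160). ISG15 varied widely between resistant deficient libraries, at 40.1 and 17.2 CPM. So did PARP10, at 32.5 and 15.5 CPM, and less so LGALS3BP (424 and 297 CPM) and PML (75.9 and 54.6 CPM). IFITM2 was even between them, at 29.7 and 28.2 CPM.

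Of 6 JAK-STAT signal transducer genes, 3 rose and 1 fell in proficient cells (median 0.32), where 25.9% of all tested genes rose and 27.8% fell. In deficient cells 1 rose and 5 fell (median -0.87), where 28.9% of all tested genes rose and 27.0% fell. IRF9, the DNA-binding part of ISGF3, averaged 21.5 CPM in resistant proficient and 18.7 CPM in parental proficient cells, against 16.5 CPM in resistant deficient and 68.8 CPM in parental deficient cells. IRF9 fell by 2.06 ± 0.11 on the log2 scale in deficient cells (adjusted p = 2.12e-07) and did not pass in proficient cells (0.20, adjusted p = 0.156). STAT2, its partner in ISGF3, rose by 0.39 (adjusted p = 0.000599) in proficient cells and fell by 0.71 ± 0.07 in deficient cells (adjusted p = 1.40e-05). JAK1 fell in both.

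Among 5 interferon regulatory factors, 3 fell and none rose in proficient cells, with IRF1 at -2.35 ± 0.12 (adjusted p = 6.40e-08). In deficient cells 3 rose and 1 fell, with IRF7 at 1.21 (adjusted p = 0.0123). IRF7 varied widely between resistant deficient libraries, at 10.3 and 5.06 CPM. For these and the next lists, the shares of all tested genes were 25.9% rising and 27.8% falling in proficient cells. In deficient cells they were 28.9% and 27.0%. Of 6 receptor genes, IFNAR1 rose by 0.60 (adjusted p = 0.000704) and IFNLR1 fell by 0.44 (adjusted p = 0.0199) in proficient cells. In deficient cells IFNLR1 rose by 0.80 (adjusted p = 0.000299) and IFNAR2 fell by 0.50 (adjusted p = 0.0161). Of 6 feedback inhibitors, SOCS3 rose by 1.92 ± 0.24 in proficient cells (adjusted p = 4.27e-05), where USP18 gave 0.01 (adjusted p = 0.929), and USP18, which holds back receptor signalling, fell by 0.90 ± 0.10 in deficient cells (adjusted p = 3.91e-05). Of 10 interferon ligand genes only IFNE was tested, and it passed in neither background (0.66, adjusted p = 0.132 in proficient and -0.27, adjusted p = 0.651 in deficient cells). IFNB1 held 2 and 2 counts in resistant proficient and 2 and 3 in parental proficient libraries, against 2 and 0 in resistant deficient and 6 and 6 in parental deficient libraries. IFNA2, IFNW1, IFNG, IFNL1 and IFNL3 were at 0 counts in all 8 libraries.

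The genes most like each restriction factor over the 8 libraries were found by the root mean square difference of centred log2 CPM, among 13638 genes with a mean of at least 1 CPM. MX1 was nearest to IFI44 (0.464, r = 0.98), and both SAMD9 (0.384) and SAMD9L (0.321) to ANGPTL1. TRIM22 was nearest to the protocadherin PCDHB13 (0.256, r = 0.99), which averaged 8.28 CPM in resistant proficient and 0.449 CPM in parental proficient cells, against 0.133 CPM in resistant deficient and 0.687 CPM in parental deficient cells. TRIM5 was nearest to ERLIN2 (0.0459), SAMHD1 to ETV1 (0.131) and RSAD2 to ADTRP (0.166), with the interferon-induced HERC6 next (0.235). BST2 was nearest to LEMD1 (0.190) and MX2 to DTX3 (0.495). XAF1 was nearest to EFNB1 (0.420), with the interferon-inducible DNA sensor IFI16 next (0.583, r = 0.99). The second nearest of the others were CFAP47 for MX1, CSTA for MX2, TLR1 for SAMD9, MUC16 for SAMD9L, ADAMTSL3 for SAMHD1, PCDHB16 for TRIM22, PTPRJ for TRIM5 and PRSS12 for BST2. Among members themselves, r was 0.94 for TRIM22 and TRIM5, 0.93 for MX1 with SAMHD1 and with RSAD2, 0.81 for MX1 and MX2, 0.01 for BST2 and XAF1 and -0.32 for TRIM5 and XAF1. These values describe 8 libraries in 4 groups and carry no p.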

How the data were processed

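Total RNA of 8 ovarian cancer cell line samples was measured by RNA-seq. The deposited values are whole-number counts of reads per gene symbol without normalisation. Per the submitters' processing notes, the genome build was GRCh37 and the named tools were featureCounts, Subread 2.0.1, Trimmomatic 0.39 and DESeq2 1.24.0. The sources used here do not give the annotation, strand setting or treatment of multi-mapping reads, so reads of overlapping, antisense or paralogous genes cannot be told apart.

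Counts were fitted with edgeR 4.0.16's quasi-likelihood test (R 4.3.3, TMM factors, filterByExpr, 1 fit over all 8 libraries without covariates, 4 residual degrees of freedom). The filter kept 16221 of 32803 genes and all 10 members, MX2 only through parental deficient libraries, XAF1 only through deficient libraries and TRIM22 through resistant proficient and parental deficient libraries. P-values were adjusted by Benjamini-Hochberg over all genes tested; rose and fell mean adjusted p under 0.05. The SE is the log2 fold change divided by the square root of F. CPM uses TMM-scaled totals. Where a group was at 0, the bound used a floor of 3 counts over the group, which covers counting error only. Log2 CPM for profiles used a prior count of 2. Exon lengths, GC content and overlaps came from GENCODE, promoters from RefSeq. The named genes were all members, up to 3 genes per list with the smallest p in each resistance comparison, list genes called against the main direction, the 2 most alike genes, and the nearest tested neighbours. Some genes taken under these criteria are left out of the text. Members, lists and tests were chosen with earlier results of these data known. The alternatives were RLE factors, library totals, no filter, a minimum of 1 CPM in 2 libraries or more, DESeq2 1.42.0's test, the 2 groups alone, a replicate block, a GC trend removed (a spline with 5 degrees of freedom) and each library left out. Steps were tested on simulated data. Replicate libraries differed beyond sampling noise, with a chi-square per degree of freedom of 4.21 to 22.5.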

Additional observations from a re-analysis of the deposited data

Results flagged for a closer look

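The effect of resistance differed between the backgrounds for all 10 restriction factor genes by a test of the difference itself, in edgeR's fit. The log2 differences, proficient minus deficient effect, were 5.61 for MX1, 13.54 for MX2, 5.08 for SAMD9, 4.75 for SAMD9L, 1.26 for SAMHD1, 6.98 for TRIM22, 1.03 for TRIM5, 2.93 for RSAD2, 2.91 for BST2 and 3.61 for XAF1. The adjusted p was lowest for MX1 and SAMD9 (4.16e-09) and highest for MX2 (0.00269). The MX2 value depends on the prior count, since 5 of its 8 libraries held 0 counts. Such a difference in this direction was found in 21.4% of all tested genes. For MX2 and TRIM22 the filter on low counts favoured this direction. No group had enough libraries to look for a single library far from the others.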

How the results depend on the processing

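Of 790 values of single members under the alternatives, 759 kept their call, 16 lost it, 15 gained one and 0 calls reversed. Among these values, 4 that had not passed changed sign or reached 0. The count of members that fell with resistance in deficient cells was 9 (7 to 9 over the alternatives), and of those that rose in proficient cells 8 (8 to 10). Between parental lines 8 were lower (7 to 10), between resistant lines 7 were higher (6 to 8), and the difference of effects passed for 10 (9 to 10). With 1 library left out these counts ran from 8 to 9, 8 to 10, 8 to 9, 6 to 8 and 9 to 10. The count of members lower in resistant proficient than deficient cells was 1, and 2 with the GC trend removed, where SAMHD1 joined XAF1 (-0.50, adjusted p = 1.29e-05).

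Calls that 1 choice decided were mostly those of MX2, RSAD2 and TRIM22. For MX2 the difference of effects did not pass with DESeq2 (adjusted p = 0.140) or without resistant proficient library 1 (8.79, which rests on 0 counts in proficient cells), since that library holds all 6 of its counts in proficient cells. TRIM22 between parental lines passed with library totals (-1.19, adjusted p = 0.0470) and without parental proficient library 1 (-2.15, adjusted p = 0.0119), resistant deficient library 1 (adjusted p = 0.0358) or library 2 (adjusted p = 0.0340). RSAD2 between resistant lines also lost its call without parental deficient library 1 (adjusted p = 0.0535) or 2 (adjusted p = 0.0548). MX2 between resistant lines passed without resistant proficient library 2 (adjusted p = 0.0157). With the GC trend removed, the difference between resistant lines was 1.90 for SAMD9, 1.65 for SAMD9L, 2.80 for BST2 and 0.43 for TRIM5. SAMD9 in deficient cells was then -0.34, BST2 between parental lines -0.40, and TRIM5 between parental lines passed (-0.38, adjusted p = 0.000340). XAF1 in proficient cells passed without resistant proficient library 2 (1.88, adjusted p = 0.0265).

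Replicate numbers do not pair the libraries: deviations of same-numbered libraries correlated at 0.12 in deficient and -0.10 in proficient cells, -0.05 between parental and 0.21 between resistant lines. The replicate block changed the call of 1 member, TRIM22 between parental lines (-1.13, adjusted p = 0.0414), where the filter favoured its direction. With 2 libraries a group, TRIM22, XAF1 and MX2 were limited by their few counts in the low groups.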

Other observations

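Neighbours of the restriction factor genes did not all move with them. TMPRSS2, a membrane protease gene beside the MX pair on chromosome 21, stood at 0.798 and 0.666 CPM in resistant proficient and 0.967 and 1.18 CPM in parental proficient libraries, against 1.48 and 1.243 CPM in resistant deficient and 0.0658 and 0.115 CPM in parental deficient libraries. It rose by 3.82 ± 0.49 on the log2 scale with resistance in deficient cells (edgeR adjusted p = 7.40e-05), where MX1 and MX2 fell, and did not pass in proficient cells (-0.55, adjusted p = 0.244).

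The DNA sensor IFI16 stood at 0.451 and 0.583 CPM in resistant proficient and 0.403 and 0.138 CPM in parental proficient libraries, against 6.59 and 7.98 CPM in resistant deficient and 53.8 and 52.2 CPM in parental deficient libraries. By their means, its groups had the same order as those of XAF1. IFI16 was picked for its likeness to XAF1 over these libraries, so a shared order was favoured by that choice. The proficient groups did not differ past edgeR's test for IFI16 (adjusted p = 0.0962) or XAF1 (adjusted p = 0.0624).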
